A study of Homo sapiens with 9 samples.

Results

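The genes described here are the zinc transporters of the ZnT (SLC30A) and ZIP (SLC39A) families, the metallothioneins and MTF1. They were chosen by name and by the protein-coding label in the deposited tables, which gave 36 genes of the 58735 listed: 10 ZnT genes, 13 ZIP genes, 12 metallothioneins and MTF1. The RNA came from MDA-MB-231, an established breast cancer line that is triple-negative and mesenchymal. The 9 libraries fall into 3 groups of 3. Vehicle cells received DMSO, erastin-R cells survived increased concentrations of erastin, which blocks cystine uptake, and RSL3-R cells survived increased concentrations of RSL3, which inhibits the lipid peroxide reductase GPX4. No genetic change distinguishes the groups in the labels, which give neither doses nor times. The labels do not say whether the replicates of a group came from separate cultures, so the p values measure the spread between these libraries, which may be technical.

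Zinc is a structural or catalytic part of many proteins, and free zinc in the cytosol is kept very low. ZIP proteins carry zinc into the cytosol, from outside the cell or from organelles, and ZnT proteins carry it out of the cytosol, across the cell surface or into organelles. Metallothioneins are small proteins rich in cysteine that bind zinc and copper and release them when their thiols are oxidized. MTF1 is a transcription factor that senses zinc with its zinc fingers and binds short metal response elements in the promoters of metallothionein genes and of SLC30A1.

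The metal response element was searched as TGCACNC or TGCGCNC on both strands, where N is any base, in RefSeq promoter windows of GRCh38.p14 that reach from 250 bases before to 50 bases after a gene's start. Of all 35116 windows, 29.6% held a match and 0.601% held 4 or more. Of the 36 genes, 27 had a window. All 5 metallothioneins with a window held matches: 8 in MT2A, 8 in MT1H, 4 in MT1X, 3 in MT1B and 3 in MT4. Only 7 of all windows (0.0199%) held 8 or more. Among the 21 transporters with a window, 12 held a match, and the largest number was 3, in SLC30A2. Some transporters have more than 1 window, and counted by window, as for the share of all windows, 13 of 30 held a match. A match is a description of the letters, not a site of binding. The sequences below are those of the metallothionein with the largest change in these cells (MT1X), of the most abundant one (MT2A, as short pieces), of one that was not detected although it holds as many matches as MT2A (MT1H) and of the zinc exporter SLC30A1. They are written 5′ to 3′ on the gene's strand, from the plus strand for the metallothioneins and from the minus strand for SLC30A1, with matches in capitals.
MT1X, chr16:56682220-56682423: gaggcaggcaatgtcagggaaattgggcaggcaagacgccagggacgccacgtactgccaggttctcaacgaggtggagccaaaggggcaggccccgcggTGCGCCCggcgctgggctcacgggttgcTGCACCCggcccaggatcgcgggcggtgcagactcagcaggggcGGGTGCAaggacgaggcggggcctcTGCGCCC
MT2A, chr16:56608412-56608441: gcccGTGTGCAgagccgggTGCGCCCggcc
MT2A, chr16:56608488-56608517: cgcggggcGTGTGCAggcagcgcccggccg
MT2A, chr16:56608524-56608553: ggctttTGCACTCgtcccggctctttctag
MT1H, chr16:56669564-56669813: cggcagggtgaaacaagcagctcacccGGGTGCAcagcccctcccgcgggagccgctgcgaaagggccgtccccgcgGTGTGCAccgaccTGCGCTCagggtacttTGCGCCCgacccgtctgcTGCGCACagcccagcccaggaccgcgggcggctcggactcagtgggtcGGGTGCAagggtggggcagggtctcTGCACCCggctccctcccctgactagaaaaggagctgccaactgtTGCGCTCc
SLC30A1, chr1:211579162-211579411: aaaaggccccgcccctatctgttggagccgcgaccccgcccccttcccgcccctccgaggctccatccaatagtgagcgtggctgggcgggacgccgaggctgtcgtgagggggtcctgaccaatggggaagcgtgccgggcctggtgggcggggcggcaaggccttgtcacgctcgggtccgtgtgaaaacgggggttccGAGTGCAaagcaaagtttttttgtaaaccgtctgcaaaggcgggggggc
The pieces printed for MT1X, MT1H and SLC30A1 end at or before the gene's start. For SLC30A1 this is the RefSeq start, and in the GENCODE annotation the gene begins further downstream, at 211578742. The MT2A pieces lie before the RefSeq start of their window, but within MT2A exons of the GENCODE annotation, where the gene begins at 56608199. The stretch printed for SLC30A1 holds 1 match, and the bases after the RefSeq start held the other of its 2.

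Of the 36 genes, 23 had 10 or more counts in at least 3 libraries and were tested: 6 ZnT genes, 11 ZIP genes, 5 metallothioneins and MTF1. Of the other 13, 9 were at 0 in all 9 libraries. These were the metallothioneins MT1B, MT1G, MT1H, MT1HL1, MT1M, MT3 and MT4, the pancreatic islet zinc transporter SLC30A8, and SLC39A12. A count of 0 allows up to 3 counts, which is 0.174 to 0.195 CPM (counts scaled to library size) depending on the library and covers counting error only. SLC30A2, SLC30A3, SLC30A10 and SLC39A2 had counts, at most 12 in a library, and no fold changes are given for them.

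Total counts ranged from 15405102 to 17273464 per library. Across all genes, erastin-R replicate 1 stood apart from the other replicates of its group: the chi-square per gene between replicates was 23.9 at most, in a pair with this library, and 2.43 at least. VIM, CD44 and AXL, which mark this mesenchymal line, were at 1274.5 to 1581, 231 to 321 and 769 to 1236 CPM. The receptors ESR1 and PGR, the epithelial cadherin CDH1 and the leukocyte gene PTPRC were at 3.8 CPM or less in every library. CDH1 and PTPRC were higher in RSL3-R than in vehicle cells (log2 fold changes 1.58 and 1.67, adjusted p = 0.0013 and 0.00818), and the part of these cells or levels in the results was not tested. In bulk RNA, fewer cells of a kind and less RNA per cell cannot be told apart.

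Levels are compared between genes per length, with the FPKM values that the authors deposited. MT2A was the most abundant, at 716 ± 38.1 FPKM in vehicle, 1075 ± 16.3 in erastin-R libraries and 744 ± 29.8 in RSL3-R libraries (SD, n = 3). MT1E followed in vehicle cells (139 ± 2.66 FPKM) and SLC39A7 came next (72.7 ± 4.85 FPKM), and in erastin-R cells SLC39A7 (111 ± 4.52 FPKM) stood above MT1E (98.6 ± 6.59 FPKM). In RSL3-R cells the means of SLC39A7 and MT1E were nearly equal (68.98 and 68.35 FPKM), with overlapping libraries. MT1A followed in vehicle and erastin-R cells, with group means of 22.5, 29.8 and 22.8 FPKM in vehicle, erastin-R and RSL3-R libraries. Its RSL3-R mean was nearly equal to that of SLC39A10 (22.86 FPKM). SLC39A13, SLC39A9, SLC39A10, SLC39A6 and SLC30A9 had between 12.5 and 26.2 FPKM in the group means, and their neighbours in this order overlapped in several libraries. The lowest genes with fold changes were SLC39A1 and SLC39A5, at 0.201 to 0.348 FPKM. SLC39A1 shares 60.8% of its exon length with AL358472.7 on the same strand, and that entry had 0 counts in every library. The treatment of reads in shared exons is not given in the sources used here, so the level of SLC39A1 is uncertain.

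**Figure D1:**
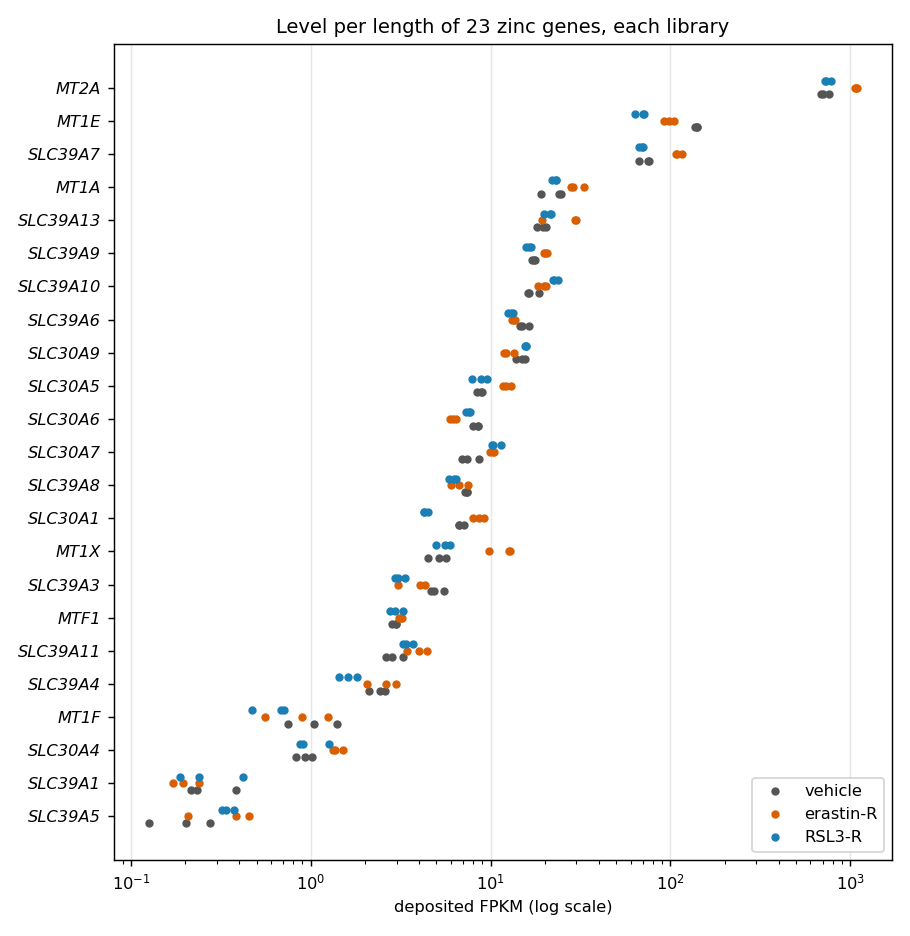
Deposited FPKM of the 23 zinc genes with fold changes, in each library, on a log axis, with points coloured by group and genes ordered by their vehicle mean. MT2A is the highest in every group and SLC39A1 and SLC39A5 lie below 1 FPKM in every library.

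The 3 comparisons were made with edgeR's quasi-likelihood test, with p values adjusted by the Benjamini-Hochberg method over all 16188 genes tested. In erastin-R against vehicle cells, 12 of the 23 zinc genes were higher and 5 lower at an adjusted p under 0.05, where 54.0% of all genes tested passed (27.1% higher, 26.8% lower). With the study's further threshold, an absolute log2 value of 1 or more, only MT1X of the 23 passed, where 13.4% of all genes did. The libraries of both groups did not overlap for 16 of the 23, against 57.9% of all genes. The median log2 change was 0.22 for the 23 genes and 0.00 for all genes, and the median absolute value was 0.43 and 0.40.

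In RSL3-R against vehicle cells, 2 zinc genes were higher and 6 lower, where 48.7% of all genes passed (23.8% higher, 24.9% lower). MT1E alone was past the fold threshold, with 10.1% of all genes. Groups did not overlap for 14 of the 23, against 61.9% of all genes. The median log2 change was 0.01 both for the 23 genes and for all genes, and the median absolute value was 0.15 for the zinc genes and 0.35 for all. In RSL3-R against erastin-R cells, 3 were higher and 11 lower, where 49.2% of all genes passed (22.3% higher, 26.9% lower), and MT1X alone was past the fold threshold, with 10.3% of all genes. Groups did not overlap for 13 of the 23, against 55.2% of all genes. Both comparisons with vehicle share the vehicle libraries, so their values are given side by side and the direct comparison carries the test of their difference.

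**Figure D2:**
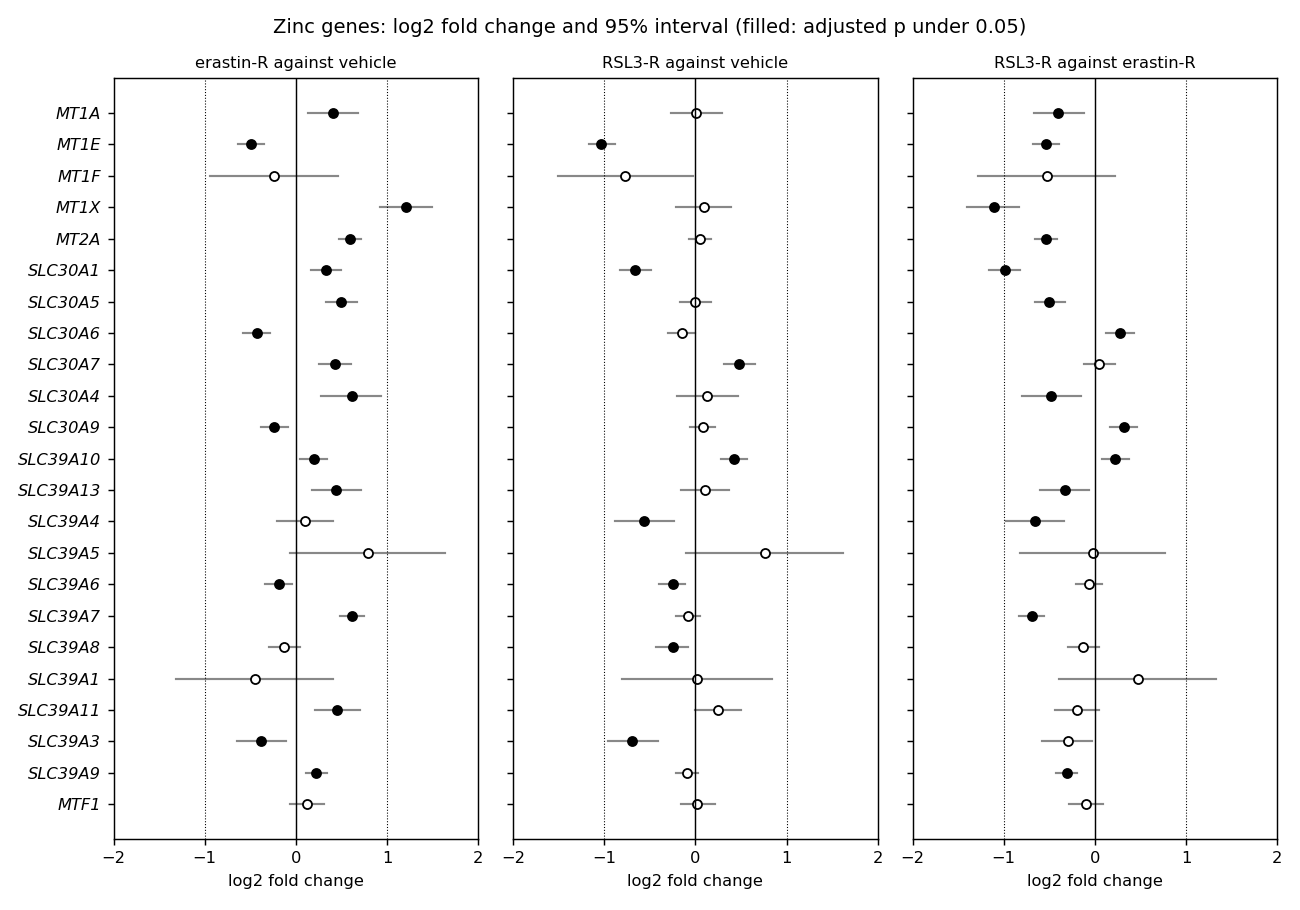
Log2 fold change (points) and 95% interval (lines) of the 23 zinc genes in the 3 comparisons, with filled points at an adjusted p under 0.05 and dotted lines at an absolute log2 fold change of 1. MT1X passes 1 in erastin-R against vehicle cells (1.21), MT1E passes it in RSL3-R cells (-1.03), and SLC30A1 lies on opposite sides of 0 in the comparisons with vehicle (0.33 and -0.66).

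The metallothioneins differed from each other in their response. In erastin-R cells MT2A, MT1X and MT1A rose and MT1E fell, while in RSL3-R cells MT1E fell and MT2A, MT1X and MT1A did not pass the test. MT2A (ENSG00000125148, chromosome 16, 56608199 to 56609497), the main metallothionein of most human tissues, had 996, 897 and 926 CPM in the vehicle libraries, 1441, 1423 and 1386 CPM in the erastin-R libraries, and 962, 943 and 1014 CPM in the RSL3-R libraries. All erastin-R libraries were above all others, and RSL3-R and vehicle libraries overlapped. The log2 fold change of MT2A was 0.59 in erastin-R cells (standard error, SE, 0.06, edgeR adjusted p = 1.14e-06) and 0.05 in RSL3-R cells (95% interval -0.07 to 0.17, adjusted p = 0.488). Between RSL3-R and erastin-R cells it was -0.54 (adjusted p = 4.21e-06).

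MT1X (ENSG00000187193, chromosome 16, 56682424 to 56684196) is a further metallothionein of the same cluster. Its levels were 10.2, 8.03 and 9.25 CPM in vehicle, 17.8, 23.1 and 22.6 CPM in erastin-R, and 10.6, 9.94 and 8.82 CPM in RSL3-R libraries. The lowest erastin-R library, replicate 1, was still above every vehicle and RSL3-R library. MT1X rose 2.31-fold in erastin-R cells (log2 fold change 1.21, SE 0.13, edgeR adjusted p = 4.64e-06). In RSL3-R cells its log2 change was 0.09 (95% interval -0.21 to 0.39, adjusted p = 0.615), and the direct difference of RSL3-R from erastin-R cells was -1.11 (adjusted p = 1.39e-05). Of the 50-base words in its transcripts, 18.3% occur in other genes as well, most often in AC026461.1 and then in MT1G and MT2A. AC026461.1 lies on the same strand, covers 18.1% of the exon length of MT1X and had 0 counts. Words shared through this overlap are the same stretch of the genome, and the treatment of reads there is not given in the sources used here. Reads within words shared with MT1G or MT2A cannot be placed uniquely.

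MT1E (ENSG00000169715, chromosome 16, 56625475 to 56627112) went the other way. Its levels were 145, 149 and 149 CPM in vehicle, 98.6, 112 and 105 CPM in erastin-R, and 75.6, 67.3 and 74.5 CPM in RSL3-R libraries. The 3 groups did not overlap, falling from vehicle over erastin-R to RSL3-R. The log2 change was -0.49 in erastin-R cells (SE 0.07, edgeR adjusted p = 3.04e-05) and -1.03 in RSL3-R cells (SE 0.07, adjusted p = 3.49e-08), a level 2.04-fold lower than in vehicle cells. The direct difference of RSL3-R from erastin-R cells was -0.54 (adjusted p = 2.28e-05). With quantile normalization and without RSL3-R replicate 2, MT1E in RSL3-R cells came to -0.98 each time, short of the fold threshold, and kept an adjusted p under 0.05.

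MT1A and MT1F were rarer. MT1A ranged from 7.59 to 9.88 CPM in vehicle, from 11.2 to 13.1 CPM in erastin-R and from 8.83 to 9.28 CPM in RSL3-R libraries. Its log2 change was 0.41 in erastin-R cells (edgeR adjusted p = 0.0153), and the adjusted p rose to 0.0784 without vehicle replicate 3 and 0.0646 without erastin-R replicate 3. The direct difference of MT1A, -0.40, had an adjusted p of 0.0197 and lost it without erastin-R replicate 3 or any RSL3-R library (0.0623 to 0.0784). Of the 50-base words of MT1A, 5.8% occur in other genes, most often in MT1X, and reads within them cannot be placed uniquely. For MT1E this share was 7.1%, most often with the pseudogene MT1JP. MT1F ranged from 0.903 to 2.68 CPM over all libraries and the groups overlapped, except that every RSL3-R library lay below every vehicle library; its log2 change in RSL3-R cells was -0.77 (95% interval -1.51 to -0.03, adjusted p = 0.0789). That p fell to 0.0446 without vehicle replicate 2, to 0.0336 without erastin-R replicate 1 and to 0.0386 with only the groups compared.

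**Figure D3:**
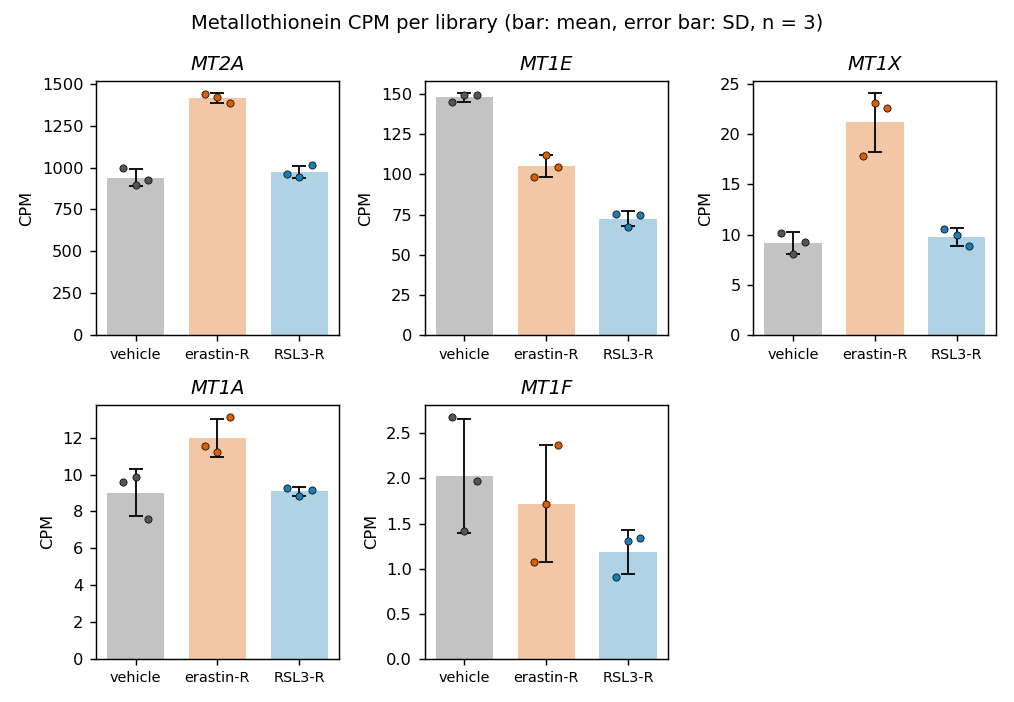
CPM of the 5 measured metallothioneins in each library, on axes that start at 0, with bars at group means and error bars at the SD (n = 3). MT2A and MT1X stand highest in erastin-R cells, and MT1E steps down from vehicle over erastin-R to RSL3-R cells.

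Summed over the family, metallothioneins took 0.110% ± 0.00551 of all counts in vehicle, 0.157% ± 0.00289 in erastin-R and 0.107% ± 0.00306 in RSL3-R libraries (SD, n = 3). The ranges were 0.106% to 0.116%, 0.155% to 0.160% and 0.104% to 0.110%, so the erastin-R libraries lay apart and the other groups overlapped. The mixture within this sum differed as well. MT2A made up 84.8% ± 0.721 of metallothionein counts in vehicle, 91.0% ± 0.693 in erastin-R libraries and 91.3% ± 0.346 in RSL3-R libraries. MT1E made up 13.4% ± 0.794, 6.76% ± 0.439 and 6.80% ± 0.312. For each MT1E count there were 6.36 ± 0.452 MT2A counts in vehicle, 13.5 ± 0.985 in erastin-R libraries and 13.4 ± 0.666 in RSL3-R libraries. This ratio was alike in both survivor groups, with overlapping libraries (12.7 to 14.6 and 12.7 to 14.0), although the levels of both genes were lower in RSL3-R than in erastin-R cells. The ratios come from counts and need no scaling between libraries.

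Along chromosome 16, 11 of the 12 metallothioneins lie in a row in the order MT4, MT3, MT2A, MT1E, MT1M, MT1A, MT1B, MT1F, MT1G, MT1H and MT1X, and MT1HL1 lies on chromosome 1. Detected and undetected genes were interspersed in this row. MT1M, at 0 counts, starts 67.2 kb from the start of MT4, between MT1E (60.4 kb) and MT1A (73.6 kb), and MT1G and MT1H lie between MT1F and MT1X. MT2A and MT1E are neighbours in the row and differed in direction in erastin-R cells. The 8 MT1 pseudogenes in the tables had at most 6 counts in a library.

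**Figure D4:**
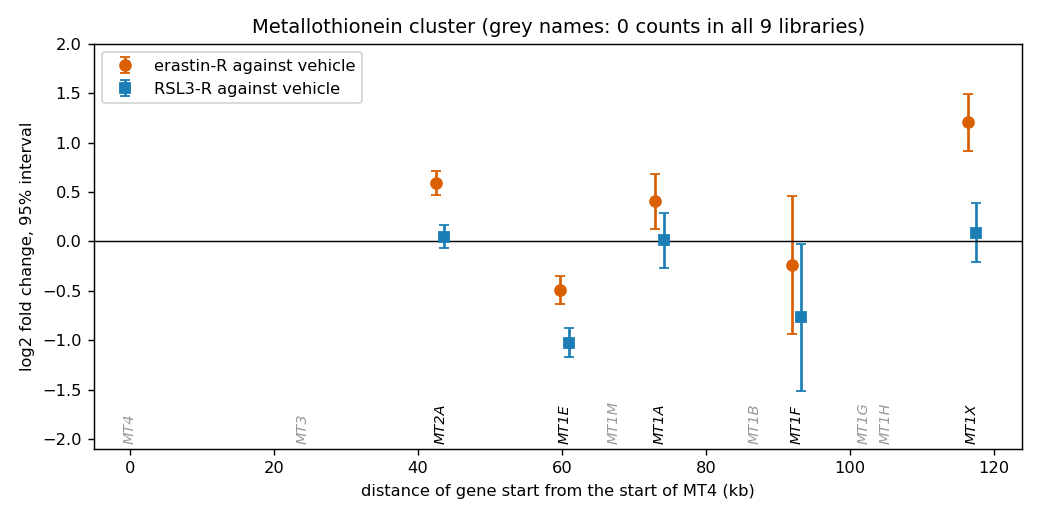
Log2 fold change against vehicle, with 95% intervals, of the 5 measured metallothioneins by the distance of the gene's start from that of MT4 in kb. Grey names are genes at 0 counts in all 9 libraries, and along the row MT2A (0.59), MT1E (-0.49), MT1A (0.41), MT1F (-0.24) and MT1X (1.21) differ in sign in erastin-R cells.

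MTF1, the zinc sensor, had 24.1, 24.3 and 22.8 CPM in vehicle, 26.0, 26.3 and 25.0 CPM in erastin-R, and 23.8, 22.4 and 26.1 CPM in RSL3-R libraries. The erastin-R libraries lay above the vehicle libraries by a small margin and the RSL3-R libraries overlapped with both. The log2 fold change of MTF1 was 0.12 in erastin-R cells (95% interval -0.06 to 0.31, edgeR adjusted p = 0.251) and 0.02 in RSL3-R cells (95% interval -0.16 to 0.21, adjusted p = 0.839).

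Of the ZnT genes, SLC30A1 was higher than vehicle in erastin-R cells and lower in RSL3-R cells. SLC30A1 (ENSG00000170385, chromosome 1, 211571568 to 211578742) encodes ZnT1, the main exporter of zinc across the cell surface. It had 37.0, 37.0 and 39.5 CPM in vehicle, 44.5, 50.8 and 47.4 CPM in erastin-R, and 23.6, 24.9 and 23.4 CPM in RSL3-R libraries. The 3 groups did not overlap, with erastin-R highest and RSL3-R lowest. Its log2 change was 0.33 in erastin-R cells (SE 0.08, edgeR adjusted p = 0.00203) and -0.66 in RSL3-R cells (SE 0.08, adjusted p = 1.08e-05). RSL3-R cells were 1.98-fold lower than erastin-R cells (log2 change -0.99, SE 0.08, adjusted p = 3.44e-07), and without erastin-R replicate 1 or RSL3-R replicate 2 this difference passed an absolute value of 1. The other exporter of the cell surface, SLC30A10, known for manganese, had at most 4 counts in a library.

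SLC30A5, SLC30A6 and SLC30A7 load zinc into the early secretory pathway, where ZnT5 and ZnT6 work as a pair and ZnT7 alone. SLC30A5 had 49.1, 51.7 and 52.2 CPM in vehicle, 71.9, 76.2 and 68.4 CPM in erastin-R, and 55.4, 46.2 and 51.7 CPM in RSL3-R libraries. It rose in erastin-R cells (log2 change 0.50, SE 0.08, edgeR adjusted p = 9.45e-05), and its difference in RSL3-R cells was 0.00 (95% interval -0.17 to 0.17). Its partner SLC30A6 fell in erastin-R cells, from 43.6 to 46.9 CPM in vehicle to 32.5 to 35.3 CPM (log2 change -0.43, adjusted p = 1.73e-04), and was -0.15 in RSL3-R cells (adjusted p = 0.0864). SLC30A6 in RSL3-R cells had an adjusted p of 0.0395 without erastin-R replicate 1. SLC30A7 was higher in both survivor groups, with log2 fold changes of 0.43 in erastin-R cells (adjusted p = 5.17e-04) and 0.48 in RSL3-R cells (adjusted p = 2.35e-04). It ranged from 58.4 to 72.9 CPM in vehicle, 84.9 to 88.6 CPM in erastin-R and 86.6 to 96.1 CPM in RSL3-R libraries.

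SLC30A4, which fills vesicles with zinc, had 6.80, 8.28 and 7.59 CPM in vehicle, 11.3, 12.4 and 10.9 CPM in erastin-R, and 7.09, 7.40 and 10.3 CPM in RSL3-R libraries. The erastin-R libraries were above all others. The log2 fold change of SLC30A4 was 0.61 in erastin-R cells (edgeR adjusted p = 0.00377) and 0.13 in RSL3-R cells (95% interval -0.20 to 0.47, adjusted p = 0.508). Its direct difference of -0.48 (adjusted p = 0.0175) had an adjusted p of 0.0587 to 0.115 without erastin-R replicate 2, RSL3-R replicate 1 or RSL3-R replicate 2. SLC30A9, placed in mitochondria, had 102, 110 and 113 CPM in vehicle, 99.3, 89.6 and 86.4 CPM in erastin-R, and 115, 113 and 115 CPM in RSL3-R libraries. It fell in erastin-R cells (log2 change -0.24, adjusted p = 0.00841) and was higher in RSL3-R than in erastin-R cells (0.32, adjusted p = 0.00139). All 6 measured ZnT genes passed in erastin-R against vehicle cells, 4 higher and 2 lower, and 2 passed in RSL3-R cells, SLC30A7 higher and SLC30A1 lower. Of all genes tested, 54.0% passed in erastin-R cells (27.1% higher, 26.8% lower) and 48.7% in RSL3-R cells (23.8% higher, 24.9% lower).

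ZIP proteins fall into subfamilies, of which LIV-1 is the largest. Of the 11 measured ZIP genes, 5 were higher and 2 lower in erastin-R cells, and 1 was higher and 4 lower in RSL3-R cells. These are 63.6% and 45.5% of the ZIP genes, near the 54.0% and 48.7% of all genes that passed in either direction. By direction, 45.5% of ZIP genes were higher and 18.2% lower in erastin-R cells, against 27.1% and 26.8% of all genes. In RSL3-R cells 9.09% were higher and 36.4% lower, against 23.8% and 24.9%. SLC39A7 (ENSG00000112473, chromosome 6, 33200445 to 33204439) encodes ZIP7, which releases zinc from the endoplasmic reticulum and Golgi into the cytosol. It had 216, 219 and 193 CPM in vehicle, 313, 313 and 333 CPM in erastin-R, and 191, 200 and 202 CPM in RSL3-R libraries. The erastin-R libraries lay above all others. SLC39A7 rose 1.53-fold in erastin-R cells (log2 change 0.61, SE 0.06, edgeR adjusted p = 2.17e-06), was -0.08 in RSL3-R cells (95% interval -0.21 to 0.05, adjusted p = 0.311), and differed by -0.69 between RSL3-R and erastin-R cells (adjusted p = 1.17e-06). The gene RXRB on the opposite strand covers 8.6% of its exon length, and the strand setting of the counting is not given in the sources used here.

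SLC39A10, which imports zinc at the cell surface, was the ZIP gene that was higher in RSL3-R cells. It ranged from 113 to 130 CPM in vehicle, 129 to 142 CPM in erastin-R and 155 to 166 CPM in RSL3-R libraries. Its log2 change in RSL3-R cells was 0.42 (edgeR adjusted p = 1.62e-04) and 0.22 between RSL3-R and erastin-R cells (adjusted p = 0.0137). The erastin-R value was 0.20 (adjusted p = 0.0246), with an overlap of the libraries, an adjusted p of 0.0538 with only the groups compared, and of 0.0585 to 0.123 without vehicle replicate 1, vehicle replicate 2, erastin-R replicate 2 or erastin-R replicate 3. SLC39A6, which forms a complex with SLC39A10 at the cell surface, went down instead. It ranged from 54.5 to 60.7 CPM in vehicle, 49.0 to 51.3 CPM in erastin-R and 46.0 to 49.3 CPM in RSL3-R libraries. Its log2 change in RSL3-R cells was -0.25 (adjusted p = 0.00723), which rose to an adjusted p of 0.0832 without RSL3-R replicate 3. In erastin-R cells SLC39A6 was at -0.19 (adjusted p = 0.0306), and that p lay between 0.0569 and 0.115 without vehicle replicate 2, vehicle replicate 3, erastin-R replicate 2 or erastin-R replicate 3. With the replicate number as a block, the adjusted p of SLC39A6 in erastin-R cells was 0.0615, with no filter on low counts it was 0.0842, and with only the groups compared 0.0639.

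SLC39A13, which supplies zinc from Golgi and vesicles, was split within erastin-R cells. It had 90.5, 136 and 138 CPM in erastin-R replicates 1, 2 and 3, against 84.1 to 94.2 CPM in vehicle and 91.4 to 99.7 CPM in RSL3-R libraries. Erastin-R replicate 1 lay among the vehicle libraries and the other erastin-R libraries lay above all. The log2 fold change of SLC39A13 in erastin-R cells was 0.44 (SE 0.12, edgeR adjusted p = 0.00793), and 0.61 without erastin-R replicate 1. The direct difference of -0.33 (adjusted p = 0.0378) was not past 0.05 when vehicle replicate 1, erastin-R replicate 2, erastin-R replicate 3 or any RSL3-R library was left out, with quantile normalization (adjusted p = 0.173) or with only the groups compared (adjusted p = 0.103), and it was -0.51 without erastin-R replicate 1.

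SLC39A4 and SLC39A8 take up zinc at the cell surface, and SLC39A8 also carries manganese, iron and cadmium. SLC39A4 ranged from 10.8 to 13.1 CPM in vehicle, 10.5 to 15.1 CPM in erastin-R and 7.29 to 9.14 CPM in RSL3-R libraries. SLC39A4 fell in RSL3-R cells (log2 change -0.56, edgeR adjusted p = 0.00707), with an adjusted p of 0.0536 without RSL3-R replicate 1, and was lower in RSL3-R than in erastin-R cells (-0.66, adjusted p = 0.00235). SLC39A8 ranged from 47.4 to 48.5 CPM in vehicle, 39.8 to 49.0 CPM in erastin-R and 38.5 to 41.8 CPM in RSL3-R libraries. It fell in RSL3-R cells (-0.25, adjusted p = 0.0195), and the adjusted p lay between 0.0563 and 0.0877 without vehicle replicate 2 or any RSL3-R library. With quantile normalization SLC39A8 was at -0.19 there (adjusted p = 0.0602). Without erastin-R replicate 1, SLC39A8 was also lower in RSL3-R than in erastin-R cells (-0.20, adjusted p = 0.0236). SLC39A5, at 0.371 to 1.34 CPM, had log2 fold changes of 0.79 and 0.76 against vehicle with adjusted p values of 0.111 and 0.131, and without erastin-R replicate 3 it reached 1.06 in erastin-R cells (adjusted p = 0.0444).

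Among the ZIP genes outside the LIV-1 subfamily, SLC39A9, which sits in the Golgi, was the most abundant per length. It had 123, 127 and 125 CPM in vehicle, 149, 146 and 143 CPM in erastin-R, and 120, 114 and 118 CPM in RSL3-R libraries. The 3 groups did not overlap. SLC39A9 rose in erastin-R cells (log2 change 0.22, SE 0.05, edgeR adjusted p = 0.00338), was -0.09 in RSL3-R cells (adjusted p = 0.18), and was lower in RSL3-R than in erastin-R cells (-0.31, adjusted p = 3.16e-04). The gene ERH, with up to 2399 counts in a library, covers 5.2% of the exon length of SLC39A9 on the opposite strand. The strand setting of the counting is not given. SLC39A3 fell in RSL3-R cells, from 21.3 to 25.2 CPM in vehicle to 13.5 to 15.4 CPM (log2 change -0.69, SE 0.13, adjusted p = 5.18e-04). In erastin-R cells SLC39A3 ranged from 14.2 to 19.9 CPM and its log2 change was -0.38 (adjusted p = 0.0193), with an adjusted p of 0.0866 without vehicle replicate 1. Its direct difference of -0.30 (adjusted p = 0.0662) became -0.44 without erastin-R replicate 1 (adjusted p = 0.00104).

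SLC39A11 ranged from 14.8 to 18.3 CPM in vehicle, 19.6 to 24.9 CPM in erastin-R and 18.4 to 21.0 CPM in RSL3-R libraries. Its log2 change was 0.45 in erastin-R cells (edgeR adjusted p = 0.0043) and 0.25 in RSL3-R cells (adjusted p = 0.0875), and the adjusted p in RSL3-R cells fell to 0.047 without vehicle replicate 3, 0.0336 without erastin-R replicate 1, 0.0403 with quantile normalization and 0.0317 with only the groups compared. Without erastin-R replicate 1, SLC39A11 was also lower in RSL3-R than in erastin-R cells (-0.29, adjusted p = 0.0208). SLC39A1 had 10 to 23 counts in a library and overlapping groups, with log2 fold changes of -0.45 and 0.02 (adjusted p = 0.36 and 0.977).

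**Figure D5:**
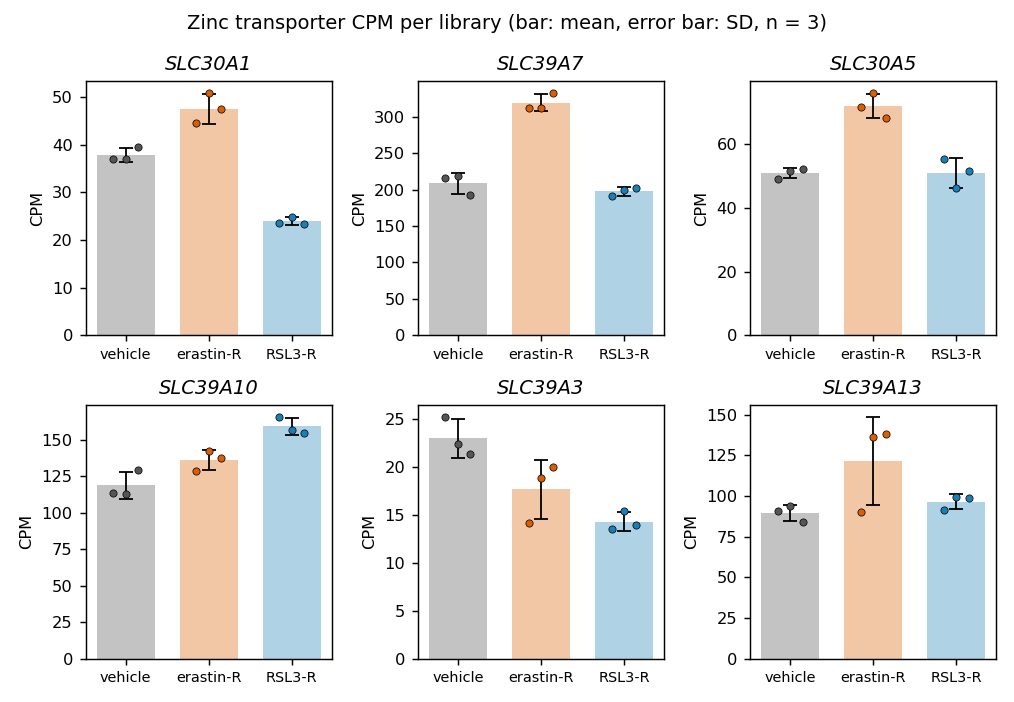
CPM of 6 zinc transporters in each library, on axes that start at 0, with bars at group means and error bars at the SD (n = 3). SLC30A1 is highest in erastin-R and lowest in RSL3-R cells, SLC39A7 and SLC30A5 are highest in erastin-R cells, and SLC39A13 in erastin-R replicate 1 (90.5 CPM) lies at the vehicle level.

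In the direct comparison, the 11 zinc genes lower in RSL3-R than in erastin-R cells were 4 metallothioneins (MT2A, MT1X, MT1E and MT1A), 3 ZnT genes (SLC30A1, SLC30A4 and SLC30A5) and 4 ZIP genes (SLC39A4, SLC39A7, SLC39A9 and SLC39A13). Their log2 changes ran from -1.11 for MT1X to -0.31 for SLC39A9. The 3 higher genes were SLC30A6 (0.27, edgeR adjusted p = 0.00558), SLC30A9 and SLC39A10. Without erastin-R replicate 1, the number of lower genes was 14, with SLC39A3, SLC39A8 and SLC39A11 added, and the share of all genes that were lower was 30%, against 26.9% with all libraries (higher, 27.1% and 22.3%). The median log2 change of the 23 genes was -0.31, against -0.02 for all genes tested.

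Proteins that work with zinc transporters or receive zinc were read from a separate list of 13 measured genes. In erastin-R cells 6 were higher and 2 lower, and in RSL3-R cells 5 were higher and 3 lower, which is 61.5% of the list each time, against 54.0% and 48.7% of all genes. By direction, 46.2% were higher and 15.4% lower in erastin-R cells, against 27.1% and 26.8% of all genes. In RSL3-R cells 38.5% were higher and 23.1% lower, against 23.8% and 24.9%. GPR39, a receptor for extracellular zinc, had 10.4, 11.0 and 11.0 CPM in vehicle, 3.39, 3.63 and 3.53 CPM in erastin-R, and 7.54, 9.26 and 6.49 CPM in RSL3-R libraries. It fell in erastin-R cells (log2 fold change -1.62, edgeR adjusted p = 1.04e-06) and by less in RSL3-R cells (-0.47, adjusted p = 0.0118), and the direct difference was 1.14 (adjusted p = 4.52e-05). TMEM163, a zinc transporter outside both families, ranged from 22.0 to 25.1 CPM in vehicle, 7.03 to 12.9 CPM in erastin-R and 10.3 to 12.5 CPM in RSL3-R libraries, with log2 fold changes of -1.29 (adjusted p = 2.03e-05) and -1.04 (adjusted p = 1.40e-04). TMC8, which binds ZnT1 in a complex with TMC6, rose in both survivor groups (1.43, adjusted p = 3.96e-06, and 1.86, adjusted p = 3.18e-07). TMC6, with up to 1026 counts in a library against 76 to 391 for TMC8, covers 4.2% of its exon length on the opposite strand. The strand setting of the counting is not given. CBWD5, a gene of the family of zinc chaperones, ranged from 11.5 to 15.9 CPM in vehicle, 20.8 to 29.2 CPM in erastin-R and 15.7 to 23.9 CPM in RSL3-R libraries, with log2 changes of 0.87 (adjusted p = 9.95e-04) and 0.69 (adjusted p = 0.00605). Of its 50-base words, 71.1% occur in other genes, chiefly its near-identical relatives, so its counts are uncertain.

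Copper shares metallothioneins with zinc. Of 11 measured genes of copper handling, 3 were higher in erastin-R cells, and 3 were higher and 1 lower in RSL3-R cells. These shares of 27.3% and 36.4% were below the 54.0% and 48.7% of all genes. SLC31A1, the copper importer of the cell surface, had 54.8, 59.5 and 60.1 CPM in vehicle, 105, 112 and 113 CPM in erastin-R, and 119, 116 and 122 CPM in RSL3-R libraries. It rose in both (log2 fold changes 0.92, adjusted p = 5.54e-08, and 1.03, edgeR adjusted p = 1.72e-08). The copper pumps differed: ATP7B rose in erastin-R cells (1.06, adjusted p = 5.27e-06) and was at -0.03 in RSL3-R cells (adjusted p = 0.87), while ATP7A rose in RSL3-R cells (0.60, adjusted p = 8.91e-04) and was at -0.22 in erastin-R cells (adjusted p = 0.15). The direct differences of ATP7B and ATP7A were -1.09 (adjusted p = 6.47e-06) and 0.82 (adjusted p = 8.39e-05). On the same strand, AL356235.1 and PGK1 cover 2.6% of the exon length of ATP7A. These entries reached up to 13536 counts in a library, against 141 to 314 for ATP7A. The treatment of reads in shared exons is not given, so the level of ATP7A is uncertain. SLC31A2, at 0.124 to 1.67 CPM, had a log2 change of 0.96 in erastin-R cells (95% interval -0.36 to 2.27, adjusted p = 0.203), and FKBP15 on the opposite strand covers 63.1% of its exon length.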

How the data were processed

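Poly(A)-selected RNA of the 9 libraries was sequenced on an Illumina platform. For each library the authors deposited raw counts per gene, without normalization, and FPKM values made from them. The study's methods say that its RPKM estimates took only reads placed uniquely in exons, and do not say whether this holds for the deposited values. The submitters' processing notes name HISAT2 2.0.5 and featureCounts 1.5.0-p3. The genome build, strand setting and treatment of reads shared between genes are not given in the sources used here. Identifiers and coordinates match GENCODE release 29 on GRCh38, which served for positions and overlaps. The deposited FPKM served only to compare levels between genes.

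The tests used edgeR 4.0.16 under R 4.3.3, on TMM-normalized counts after filterByExpr, with quasi-likelihood F tests from 1 model of the 3 groups and no covariate. CPM are scaled by the TMM library size. A total of 16188 genes was tested. Replicates varied by 8.56% (coefficient of variation, all genes). Members and lists were chosen with earlier results of these data known. Fold changes are given only for genes with 10 or more counts in at least 3 libraries. All members are named; those past the study's threshold and the highest per length of each role group have every library's value, and up to 4 genes are named per further list, by absolute log2 fold change. Some members outside this rule are described in more detail after their values were seen.

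The alternatives were no filter, a filter of 10 counts in 3 libraries, DESeq2 1.42.0, RLE factors, quantile normalization with limma 3.58.1, only the groups compared, a replicate block, each library left out, and an unadjusted p with a 2-fold change. The scripts were tested on simulated data. Libraries of the same number did not deviate together (correlations -0.090 to 0.053 over 9 pairs), so the numbers were not used as pairs. The window search used RefSeq promoters of GRCh38.p14. Plots were made in matplotlib 3.10.9 (Python 3.11.15).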

Additional observations from a re-analysis of the deposited data

Results flagged for a closer look

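The effect on SLC30A1, the zinc exporter of the cell surface, differed between the survivors of erastin and RSL3: RSL3-R minus erastin-R was -0.99 on the log2 scale (edgeR adjusted p = 3.44e-07), with opposite signs against vehicle (0.33 and -0.66). All 3 RSL3-R libraries lay below and all 3 erastin-R libraries above the vehicle libraries. The adjusted p of the direct difference stayed at or below 1.54e-05 in every alternative run, with log2 values from -1.04 to -0.89.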

How the results depend on the processing

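In erastin-R against vehicle cells, leaving out 1 library at a time gave 11 to 12 zinc genes higher, 4 to 5 lower and 1 to 2 past the fold threshold, with SLC39A5 joining MT1X without erastin-R replicate 3. In RSL3-R against vehicle cells the ranges were 2 to 3, 4 to 8 and 0 to 1, and quantile normalization with limma also left 0 past the fold threshold, since MT1E came to just under it. MT1E kept an adjusted p under 0.05 in all 17 settings. Between RSL3-R and erastin-R cells 3 were higher in every case, 8 to 14 lower and 1 to 2 past the threshold, with SLC30A1 joining MT1X without erastin-R replicate 1 or RSL3-R replicate 2. The replicate block changed 1 call at an adjusted p under 0.05, that of SLC39A6 in erastin-R cells (adjusted p = 0.0615).

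Signs turned only for differences that did not pass. Against vehicle in RSL3-R cells, no filter gave SLC30A5 -0.01 and MT1A -0.00, quantile normalization gave SLC39A1 -0.24 and MT1A -0.01, and the replicate block gave SLC39A1 -0.00. With 1 library left out, the ranges were -0.02 to 0.07 for SLC30A5, -0.38 to 0.32 for SLC39A1, -0.10 to 0.08 for MT1A, -0.01 to 0.07 for MTF1 and -0.02 to 0.27 for SLC30A4. In erastin-R against vehicle cells they were -0.54 to 0.01 for MT1F and -0.03 to 0.23 for SLC39A4. Between RSL3-R and erastin-R cells they were -0.29 to 0.20 for SLC39A5 and -0.08 to 0.00 for SLC39A6, SLC39A5 was 0.02 with only the groups compared, and SLC39A6 was 0.04 with quantile normalization. The cause was not tested. MT1F, SLC39A1 and SLC39A5 had the fewest counts of the 23 genes and the widest intervals. The other genes that turned (MT1A, MTF1, SLC30A4, SLC30A5, SLC39A4 and SLC39A6) had 110 or more counts in every library.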
